A study of Mus musculus with 24 samples.

Results

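The livers of male C57BL/6N mice that took an ethanol diet for 8 weeks and then received a binge of ethanol at 5 g/kg were set against the livers of male C57BL/6N mice that were pair-fed for 8 weeks. The samples were taken by their titles, which gave 5 ethanol-plus-binge livers and 4 pair-fed livers, 9 of the 24 samples of the series, and all genes on the array are described. Values of further groups stand beside them where named: 5 livers of mice on the ethanol diet for 8 weeks with no binge, 3 livers of mice on ethanol for 10 days with a binge of 5 g/kg, and 3 livers of mice pair-fed for 10 days, all of the same strain and sex. Pair-feeding gives control animals a diet in the amount that the ethanol-fed animals eat. Whether the pair-fed mice received a gavage without ethanol, and how many hours after the binge the liver was taken, are not given in the sources used here. The title of the series asks about CIDEC in alcoholic liver injury, so that gene is given in full.

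Each sample was whole liver RNA labelled with Cy5, hybridized on an Agilent 2-colour array together with a Cy3-labelled commercial mouse RNA that was common to all arrays. The value of a gene on an array is the log2 ratio of Cy5 over Cy3 after background correction and normalization within the array. A log2 fold change is the mean over the ethanol-plus-binge arrays minus the mean over the pair-fed arrays, and ± beside it is the standard error. All p-values are from limma and were adjusted by the Benjamini-Hochberg method over all genes tested, and a gene is said to have risen or fallen where the adjusted p was under 0.05. The labels do not say that the samples of a group are separate animals, so the p-values measure the spread between samples, and the number of arrays limits the precision. That spread was estimated within the groups of all 24 arrays together, not from the 9 compared arrays only. The 24 include 4 livers of mice on ethanol for 8 weeks with binges of 5 g/kg at 2 per week, a group not compared here.

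Ethanol is oxidised in hepatocytes by alcohol dehydrogenases and by the cytochrome CYP2E1 to acetaldehyde, which aldehyde dehydrogenases turn into acetate. Prolonged intake loads hepatocytes with triglyceride held in lipid droplets, and a large dose on top of prolonged intake is used in mice to bring stress and inflammation to a fatty liver. CIDEC sits where droplets touch and moves fat from the smaller to the larger one. It is abundant in fat tissue and scarce in lean liver.

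The 13 hepatocyte markers that could be tested, among them Alb (serum albumin) and Ttr (transthyretin), were well above background on every array of both groups where they had an unmarked spot. Of these, 2 rose and 5 fell (median -0.26), and Alb and Ttr were not called, at -0.20 ± 0.19 (adjusted p = 0.559) and -0.47 ± 0.20 (adjusted p = 0.118). Both were called lower in the Cy5 channel alone, at -0.45 (adjusted p = 0.0271) and -0.64 (0.02), and Ttr also without ethanol-plus-binge replicate 2 (-0.66, adjusted p = 0.0114). The median Cy5 intensity of an array was 95.5 to 196 in ethanol-plus-binge livers and 131 to 162 in pair-fed livers. Of all spots, 73.0% to 86.8% were well above background in Cy5 on the ethanol-plus-binge arrays, and 76.6% to 82.2% on the pair-fed arrays. All 9 arrays were of the same scan, and the slides numbered 2 to 5 each held 1 array of both groups, while slide 1 held the ethanol-plus-binge array of replicate 1 and no pair-fed array. Among the ethanol-plus-binge arrays, replicate 2 was far lower than the others in acute phase genes, and replicate 1 was highest in these and lowest in several lipid and glutathione genes. Where leaving out either array changed the call of a named gene, or moved a value or the count of a list by over 1.5 times, the value without it is given.

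Of 15723 genes tested, 1195 rose and 1378 fell, which is 7.6% and 8.76% of them. In either direction 16.4% were called, the share to set beside the counts of the lists below. The median log2 fold change over all genes was 0.02. The change was at least 2-fold for 159 of the genes that rose and 146 of those that fell. Without replicate 1 of the ethanol-plus-binge group 2330 genes were called in either direction, and without replicate 2 there were 2461, against 2573 with all arrays. Every ethanol-plus-binge array was above every pair-fed array for 1017 genes (6.47%), and below every pair-fed array for 1239 genes (7.88%). Called genes that did not overlap and were measured on all 9 arrays rose most for the metallothionein Mt1, the secreted iron-binding protein Lcn2, the cell cycle inhibitor Cdkn1a, the cytochrome Cyp2b10, the immediate early factor Egr1 and Cidec. They fell most for the steroid dehydrogenase Hsd3b5, the clock output factor Dbp, the acyltransferase family member Keg1, the replication factor Mcm10 and Srebf1, the master regulator of fatty acid synthesis. In whole liver, fewer cells of a type and less RNA per cell cannot be told apart.

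**Figure D1:**
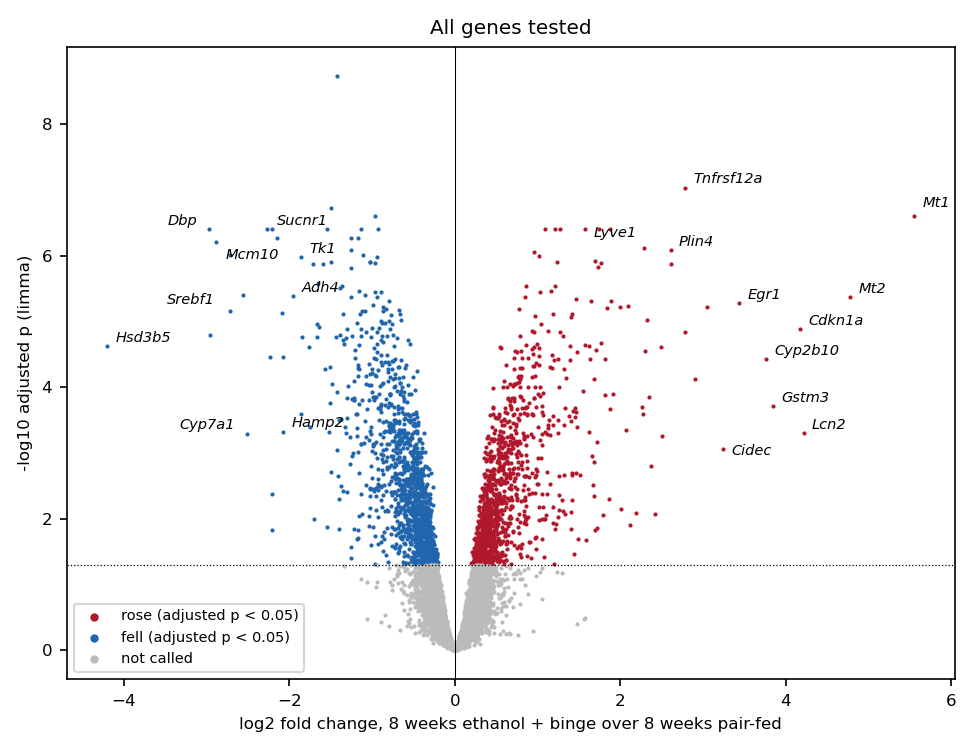
The plot gives the log2 fold change of 8 weeks ethanol plus binge over 8 weeks pair-fed livers (x axis) against -log10 of the adjusted p (y axis) for the 15723 genes tested, with genes that rose in red and genes that fell in blue. Mt1 lies farthest to the right at 5.55 and Hsd3b5 farthest to the left at -4.20.

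The differences were also measured within the slides that held both groups. Of 2243 called genes measured on all 4 of these slides, 2049 had the direction of the pooled value on every slide, against 4586 of all 14289 genes so measured. The called genes were chosen on these same arrays and are among the 14289. Their larger share therefore follows from the choice and is a description, not a separate test. With slide as a fixed block 2294 genes were called, 2087 of them shared with the 2573. The Cy5 channel alone called 1526 genes, 1368 of them shared, centring each array on its median in place of loess called 1233, and a fit of the 9 arrays only called 1649. In the Cy3 channel, which holds the same RNA on all arrays, 1 gene differed between the groups, Mt1, at -1.49.

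Metallothioneins are small cysteine-rich proteins that bind zinc and copper. The transcription factor MTF1 induces them when metals rise, and in liver glucocorticoids and inflammation induce them as well. MTF1 acts through the metal response element, whose core fits the pattern TGCNCNC. A match to that loose pattern need not be such an element. The promoters of Mt1 and Mt2 are shown because these neighbouring genes had the largest rises among all genes called. They are from RefSeq, build GRCm38.p6, from 250 bases before to 50 bases after the start of the gene, both on the plus strand, at chr8:94178839-94179138 for Mt1 and chr8:94172368-94172667 for Mt2. Capitals mark matches to TGCNCNC on either strand, and matches that overlap each other were counted separately.
Mt1: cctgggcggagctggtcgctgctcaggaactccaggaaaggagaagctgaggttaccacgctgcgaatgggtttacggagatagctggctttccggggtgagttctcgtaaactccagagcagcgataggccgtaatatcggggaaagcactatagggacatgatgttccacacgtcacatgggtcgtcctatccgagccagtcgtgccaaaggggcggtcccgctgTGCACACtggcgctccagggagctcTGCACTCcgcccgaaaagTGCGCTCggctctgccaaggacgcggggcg
Mt2: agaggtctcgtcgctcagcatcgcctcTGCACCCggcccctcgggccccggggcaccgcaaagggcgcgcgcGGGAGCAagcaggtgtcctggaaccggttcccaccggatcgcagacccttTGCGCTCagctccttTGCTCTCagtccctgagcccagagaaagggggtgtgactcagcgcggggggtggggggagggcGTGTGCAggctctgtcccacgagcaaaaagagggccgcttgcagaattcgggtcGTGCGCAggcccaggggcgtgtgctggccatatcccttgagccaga
Mt1 held 3 matches and Mt2 held 6. At least 1 match was present in 51.0% of the 32851 mouse promoters of the same length, as many as in Mt1 in 7.1%, and as many as in Mt2 in 0.225%.

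Mt1 had log2 ratios of 2.88, 0.79, 2.21, 1.5 and 2.40 in ethanol-plus-binge livers, against -3.97, -2.92, -3.24 and -4.26 in pair-fed livers. Every ethanol-plus-binge array was above the Cy3 signal and every pair-fed array below it. The difference was 5.55 ± 0.49, or 47-fold higher (adjusted p = 2.45e-07). It was 3.64 in the Cy5 channel alone and 6.21 with the arrays scaled to each other. Mt1 was also the gene whose Cy3 signal was lower on the ethanol-plus-binge arrays, as given above, which enlarges its ratio. Mt2 was 2.13, 0.68, 1.57, 1.26 and 1.70 in ethanol-plus-binge livers, against -2.68, -3.19 and -4.07 in the 3 pair-fed livers with an unmarked spot, and its groups were as far apart. Its difference was 4.78 ± 0.56, or 27.4-fold higher (adjusted p = 4.23e-06), and 3.91 in the Cy5 channel alone. Of 15 measured genes of metallothioneins and zinc transport, 5 rose and 0 fell, with a median of 0.29. The number that rose was 3 without ethanol-plus-binge replicate 1 and 8 without replicate 2. The zinc importer Slc39a14 rose by 1.32 ± 0.29 (adjusted p = 0.00219).

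Most of the lipid droplet genes that were called rose. Of 23 measured genes for droplet proteins and their lipases 10 rose and 3 fell, with a median log2 fold change of 0.39. Without ethanol-plus-binge replicate 1 the count was 8 and 3, and without replicate 2 it was 9 and 3. Cidec was 0.22, 1.12, 2.07, 1.35 and 1.5 in ethanol-plus-binge livers, against -0.73, -2.91, -2.51 and -1.83 in pair-fed livers. Replicate 1 of each group lay closest to the other group, and the groups did not overlap. The difference was 3.25 ± 0.64, or 9.49-fold higher (adjusted p = 0.00087). Within the slides numbered 2 to 5 it was 4.03, 4.58, 3.33 and 2.08, and with slide as a block 3.25 (adjusted p = 0.0011).

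Of the perilipins, which coat droplets and control the access of lipases, all measured members but Plin1 rose. Plin4, a perilipin best known from fat tissue, was 0.60, 1.02, 1.36, 1.29 and 1.19 in ethanol-plus-binge livers, against -0.57, -1.87, -1.93 and -1.69 in pair-fed livers. All 5 ethanol-plus-binge arrays were positive and all 4 pair-fed arrays negative, a difference of 2.61 ± 0.27, or 6.1-fold higher (adjusted p = 8.23e-07). Plin2, the main perilipin of fatty hepatocytes, was 0.59, 0.41, 1.19, 0.74 and 1.35 in ethanol-plus-binge livers, against 0.14, -1.43, -0.63 and -0.33 in pair-fed livers. Pair-fed replicate 1 came close to the lowest ethanol-plus-binge array without reaching it, and the difference was 1.42 ± 0.34, or 2.67-fold higher (adjusted p = 0.00514). Plin5, which links droplets to mitochondria, rose by 1.17 ± 0.14 (adjusted p = 3.42e-06). Plin3, a perilipin that shuttles between cytosol and droplets, rose by 1.20 ± 0.16 (adjusted p = 3.88e-05) on 4 and 3 measured arrays. The triglyceride lipase Pnpla2 rose by 1.15 ± 0.25 (adjusted p = 0.00293) on 4 and 3 measured arrays and its co-activator Abhd5 by 0.61 ± 0.10 (adjusted p = 0.000208).

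The other CIDE genes differed from Cidec. Cidea, a family member of brown fat, was -0.31, 0.07, 1.40, 1.05 and -0.07 in ethanol-plus-binge livers, against -0.39, -0.55, -0.45 and -0.59 in pair-fed livers. The high arrays were ethanol-plus-binge replicates 3 and 4, and the other 3 lay little above the pair-fed arrays. Its call at 0.92 ± 0.30 (adjusted p = 0.0387) was lost at 0.68 (adjusted p = 0.115) when ethanol-plus-binge replicate 3 was left out and at 0.77 (0.0907) when replicate 4 was, and without any 1 pair-fed array (adjusted p = 0.0601, 0.079, 0.0704 and 0.0896 for replicates 1 to 4), as well as with slide as a block (adjusted p = 0.0793). Cideb, the family member of normal hepatocytes, was -0.89, -0.62, -0.45 and -0.54 on 4 measured ethanol-plus-binge arrays, against -0.05 and 0.03 on 2 pair-fed arrays. Its fall of 0.62 ± 0.13 (adjusted p = 0.00322) was not called with arrays centred on their medians (adjusted p = 0.285) or scaled to each other (adjusted p = 0.0538). Among other droplet genes that fell was Aadac, an esterase of the endoplasmic reticulum, by 0.97 ± 0.10 (adjusted p = 3.49e-06).

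**Figure D2:**
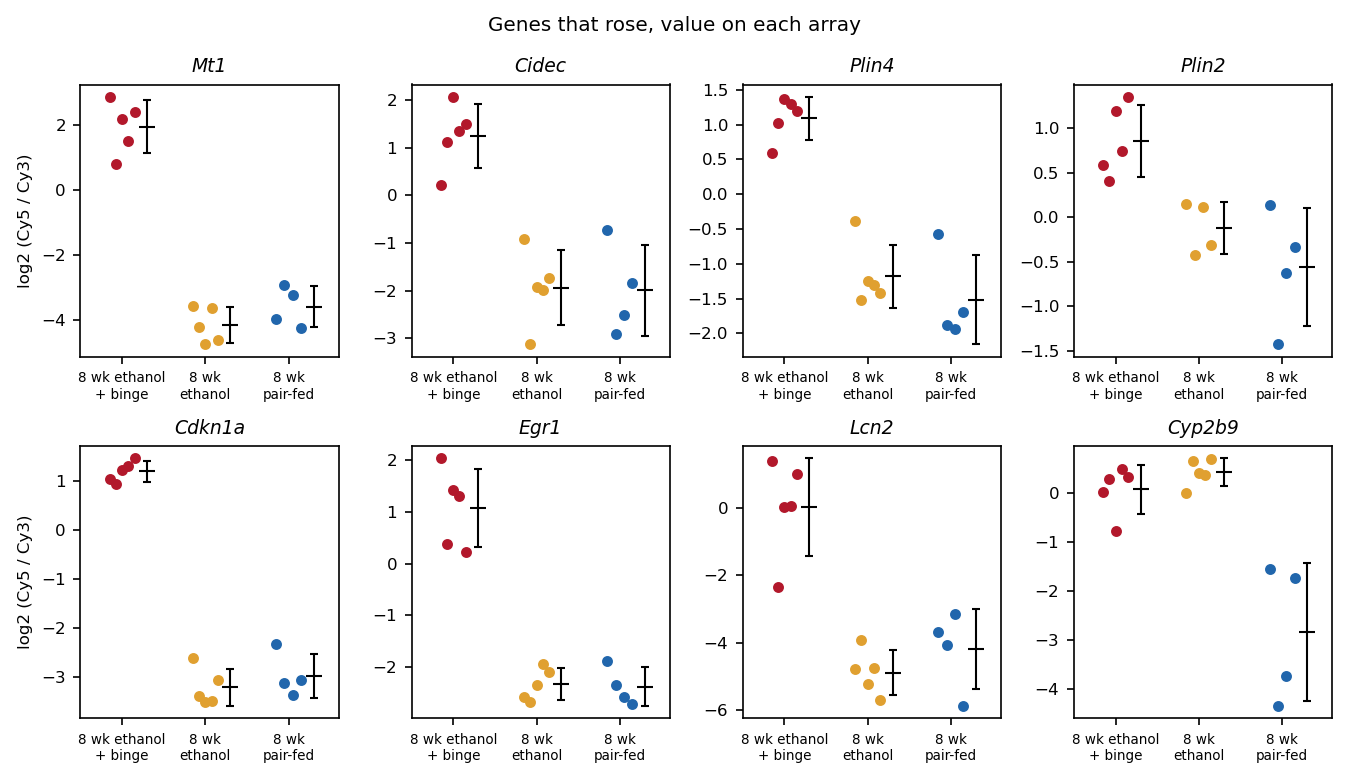
Points are the log2 ratio of Cy5 over Cy3 of 8 genes on each array of the 8 weeks ethanol plus binge group (red, 5 arrays), the 8 weeks ethanol group (orange, 4 or 5 arrays) and the 8 weeks pair-fed group (blue, 4 arrays), with mean and SD beside them in black. Cidec has 1.25, -1.94 and -1.99 as means of the 3 groups in that order, and in the panel of Cyp2b9 the ethanol arrays without a binge lie beside the ethanol-plus-binge arrays.

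Genes for taking up and binding fatty acids divided. Of 14 measured members 4 rose and 5 fell (median 0.01). Those that rose include the fat cell and macrophage binding protein Fabp4, by 1.21 ± 0.13 (adjusted p = 2.83e-06), and the lipoprotein receptor Vldlr, by 0.86 ± 0.14 (adjusted p = 0.000198). Cd36, the fatty acid translocase, was -0.24, 1.07, 0.88, 0.67 and 0.32 in ethanol-plus-binge livers, against -0.12, -0.76, -0.67 and -0.28 in pair-fed livers. Ethanol-plus-binge replicate 1 lay among the pair-fed arrays and the other 4 above them, a rise of 1.00 ± 0.22 (adjusted p = 0.00299). Those that fell include the binding proteins of liver and gut, Fabp1 by 1.27 ± 0.26 (adjusted p = 0.00144) and Fabp2 by 1.09 ± 0.20 (adjusted p = 0.000714). In the software's log ratio, which carries no offset, Vldlr was 1.58.

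Of 13 measured genes that assemble triglyceride 3 rose and 2 fell (median 0.16). The acyltransferase Gpat3, which starts the path and is typical of fat tissue, rose by 1.48 ± 0.27 (adjusted p = 0.000397). Its relative Gpat4 fell by 0.73 ± 0.10 (adjusted p = 6.24e-05).

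Genes for making fatty acids fell where they were called with all arrays. Of 12 measured members 0 rose and 4 fell, with a median of -0.62. When ethanol-plus-binge replicate 1 was left out 1 rose and 2 fell, with a median of -0.38. Srebf1, which encodes the factor SREBP-1 that switches on fatty acid synthesis after feeding, was -2.71, -2.27, -1.62, -1.21 and -2.41 in ethanol-plus-binge livers, against 0.88, 0.78, 0.46 and 0.58 in pair-fed livers. The groups lay on opposite sides of 0 with a wide gap, and the difference was -2.72 ± 0.34, or 6.6-fold lower (adjusted p = 6.81e-06). Nr1h3, the oxysterol receptor LXR-alpha that drives Srebf1, fell by 0.96 ± 0.14 (adjusted p = 3.7e-05). Fasn, fatty acid synthase, was -1.80, -0.43, 0.23 and -1.71 on 4 measured ethanol-plus-binge arrays, against 0.89, 0.67, -0.16 and -0.09 in pair-fed livers. Ethanol-plus-binge replicate 4 lay among the pair-fed arrays, and the call at -1.25 ± 0.41 (adjusted p = 0.0391) was lost without ethanol-plus-binge replicate 1 or 5 (adjusted p = 0.139 and 0.132), without pair-fed replicate 1 or 2 (0.119 and 0.0975), with slide as a block (0.113) and with marked spots kept (-0.73, adjusted p = 0.334).

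Among genes of fatty acid oxidation both directions were seen, and the regulator of the pathway fell. Of 24 measured members 3 rose and 6 fell (median -0.19). Ppara, the nuclear receptor that switches on fatty acid oxidation, fell by 1.08 ± 0.19 (adjusted p = 0.000325). Cpt1a, which admits fatty acids into mitochondria, fell by 0.73 ± 0.13 (adjusted p = 0.000463), and Decr1, which serves the oxidation of unsaturated fatty acids, by 0.59 ± 0.14 (adjusted p = 0.00557). The fasting hormone Fgf21 was among the genes that rose, by 1.1 ± 0.29 (adjusted p = 0.00879), but the mean over its probes was not called (0.68, adjusted p = 0.0671). Of 6 measured fatty acid omega-hydroxylases 0 rose and 2 fell, Cyp4f15 by 1.09 ± 0.12 (adjusted p = 4e-06) and Cyp4f14 by 0.98 ± 0.14 (adjusted p = 3.6e-05).

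In the lipoprotein list 2 of 16 measured members rose and 4 fell (median -0.06), or 1 and 3 without ethanol-plus-binge replicate 2. Apob, the structural protein of very low density lipoprotein, was -0.30, -0.08, -0.23, -0.64 and -0.11 in ethanol-plus-binge livers, against -0.36, -0.04 and -0.46 in 3 pair-fed livers, and the groups lay within each other. Apoa4, an apolipoprotein of intestine that liver makes when fat accumulates, was 0.21, 0.96, 1.35, 1.01 and 0.57 in ethanol-plus-binge livers, against -1.71 and -1.5 in the 2 pair-fed livers measured, a rise of 2.43 ± 0.61 (adjusted p = 0.00846). In the cholesterol list 1 of 22 measured members rose and 4 fell (median -0.22), or 3 and 4 without ethanol-plus-binge replicate 1. The rise with all arrays was that of Abca1, the cholesterol exporter, by 1.05 ± 0.21 (adjusted p = 0.00119). Insig1, the sterol sensor that holds SREBP back, fell by 1.13 ± 0.22 (adjusted p = 0.000733).

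In the list of enzymes that oxidise ethanol, acetaldehyde and acetate, most members that were called fell. Of 12 measured members 1 rose and 7 fell, with a median of -0.56. With ethanol-plus-binge replicate 1 left out, 2 rose and 5 fell. Catalase, Cat, was dropped by the filter on dim probes. The acetaldehyde dehydrogenase gene Aldh2 had too few unmarked spots to be tested. With marked spots kept Aldh2 was not called, at -0.16 ± 0.11 (adjusted p = 0.383). Adh4, a class II alcohol dehydrogenase that acts at high ethanol concentration, was -1.75, -1.61, -1.28, -1.1 and -1.58 in ethanol-plus-binge livers, against 0.54, 0.25 and 0.68 in 3 pair-fed livers. The groups were wide apart, at -1.95 ± 0.22, or 3.88-fold lower (adjusted p = 4.1e-06). Aldh1b1, a mitochondrial acetaldehyde dehydrogenase, fell by 1.22 ± 0.22 (adjusted p = 0.00101). Adh5, the glutathione-dependent formaldehyde dehydrogenase, fell by 0.61 ± 0.11 (adjusted p = 0.00044), a call not made with arrays centred on their medians (adjusted p = 0.178). Adh7, the enzyme of stomach, was the member that rose, by 0.84 ± 0.16 (adjusted p = 0.00061), and by 1.43 in the software's log ratio.

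Adh1, the main alcohol dehydrogenase of liver, was -0.74, 0.33, 0.19, 0.28 and 0.01 in ethanol-plus-binge livers, against -0.27, -0.33 and -0.13 in 3 pair-fed livers. Ethanol-plus-binge replicate 1 lay below all pair-fed arrays and the other 4 above them, and the gene was not called (0.26 ± 0.16, adjusted p = 0.32). Without that array it was called higher, at 0.45 (adjusted p = 0.00401). Cyp2e1 was 0.02, -0.92, -0.51, -0.28 and -0.30 in ethanol-plus-binge livers, against 0.04, 0.11 and 0.38 in 3 pair-fed livers. Ethanol-plus-binge replicate 1 nearly reached the lowest pair-fed array, and the fall of 0.57 ± 0.18 (adjusted p = 0.0351) was lost without ethanol-plus-binge replicate 2 or 3 (adjusted p = 0.089 and 0.0683), without pair-fed replicate 3 or 4 (0.0667 and 0.168), with arrays centred on their medians (0.229) and when only the arrays of the comparison were fitted (0.0797).

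Of the xenobiotic receptors and the cytochromes of their target families, 4 of 21 measured members rose and 0 fell (median 0.12). That is 19.05% called, near the 16.4% of all genes. The larger changes were in the Cyp2b family, targets of the receptor CAR. Cyp2b10 was 1.03, -0.31, -1.96, 0.30 and 1.24 in ethanol-plus-binge livers, against -2.88, -3.65, -4.05 and -4.21 in pair-fed livers. Ethanol-plus-binge replicate 3 was the lowest of the 5 and still above every pair-fed array, of which 1 of 4 was well above background. The difference was 3.76 ± 0.50, or 13.5-fold higher (adjusted p = 3.75e-05). Cyp2b9, a relative with higher levels in female mice, was 0.02, 0.27, -0.77, 0.49 and 0.32 in ethanol-plus-binge livers, against -1.56, -4.35, -3.74 and -1.73 in pair-fed livers. The pair-fed arrays formed a higher and a lower pair, both below the ethanol-plus-binge arrays, and the difference was 2.91 ± 0.43, or 7.52-fold higher (adjusted p = 7.34e-05). The other kept probe of Cyp2b9 gave 1.55, and keeping marked spots gave 1.63. In the software's log ratio Cyp2b10 was 5.93 and Cyp2b9 3.84.

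Glutathione transferases, which couple glutathione to electrophiles, rose where they were called. Of 18 measured members 9 rose and 0 fell, with a median of 0.53. Without ethanol-plus-binge replicate 1 the number that rose was 10, and without replicate 2 it was 7. Gstm1 was -0.09, 2.27, 1.84, 1.48 and 1.45 in ethanol-plus-binge livers, against -1.02, -2.05, -2.16 and -1.41 in pair-fed livers. Replicate 1 was the lowest ethanol-plus-binge array and the groups did not overlap. The difference was 3.05 ± 0.37, or 8.27-fold higher (adjusted p = 5.97e-06), and 1.76 in the Cy5 channel alone. Gstt3 rose by 2.32 ± 0.29 (adjusted p = 9.3e-06) and Gsta4 by 0.56 ± 0.10 (adjusted p = 0.000555). Gstm3 was -0.90, 2.30, 1.13, 1.51 and 1.02 in ethanol-plus-binge livers, against -2.62 and -3.06 in the 2 pair-fed livers measured, a rise of 3.85 ± 0.62 (adjusted p = 0.000193) that was 3.23 in the Cy5 channel alone and 4.46 with slide as a block. The Gstm genes are close paralogs, so their probes may share signal.

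In the list of NRF2 and antioxidant genes 6 of 27 measured members rose and 3 fell (median 0.14). Leaving out ethanol-plus-binge replicate 1 gave 11 that rose and leaving out replicate 2 gave 4, with 3 that fell in either case. Gpx3, the extracellular glutathione peroxidase, rose by 1.47 ± 0.21 (adjusted p = 2.89e-05). Txnrd1, thioredoxin reductase, rose by 0.76 ± 0.12 (adjusted p = 0.000217) with 2 measured pair-fed arrays. Nqo1, a standard NRF2 target, was -0.58, 1.01, 0.35, 0.12 and 0.53 in ethanol-plus-binge livers, against 0.11, -0.97, -0.70 and -0.41 in pair-fed livers. Replicate 1 was the lowest array of the first group and the highest of the second, so the groups overlapped. The call of Nqo1 at 0.78 ± 0.24 (adjusted p = 0.0257) was lost without ethanol-plus-binge replicate 2 or 5 (adjusted p = 0.0789 and 0.0606) and without pair-fed replicate 2 or 3 (0.107 and 0.0793) and when only the arrays of the comparison were fitted (0.12). Without replicate 1 of the ethanol-plus-binge group it was 1.00 (adjusted p = 0.00186), and its value was 1.73 in the software's log ratio.

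Steroid dehydrogenases fell where they were called. Of 13 measured, 0 rose and 10 fell, with a median of -1.13. Hsd3b5, a ketosteroid reductase made in male mouse liver under pulsed growth hormone, was -2.94, -3.97, -3.65, -1.71 and -3.72 in ethanol-plus-binge livers, against 0.54, 1.65, 1.16 and 0.67 in pair-fed livers. Replicate 4 was the least low ethanol-plus-binge array, 3 of those 5 arrays were well above background, and the groups were far apart. The difference was -4.20 ± 0.58, or 18.4-fold lower (adjusted p = 2.39e-05), and -5.97 in the software's log ratio. Hsd3b2 fell by 2.08 ± 0.25 (adjusted p = 7.46e-06), though the mean over its 3 probes was -1.39. Hsd3b3 fell by 1.27 ± 0.24 (adjusted p = 0.000562), Hsd3b6 by 1.21 ± 0.19 (adjusted p = 7.91e-05) and the hydroxysteroid dehydrogenase Akr1c6 by 1.02 ± 0.18 (adjusted p = 0.000403). The Hsd3b genes are close paralogs, and a probe for 1 of them may read another in part.

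Of 13 measured male-predominant liver genes 0 rose and 6 fell (median -0.68), and of 17 female-predominant genes 1 rose and 0 fell (median 0.02). The shares called were 46.15% and 5.88%, against 16.4% of all genes. The female-predominant gene that rose was Cyp2b9, and 2 rose without ethanol-plus-binge replicate 1. In the growth hormone and IGF list 0 of 12 measured members rose and 4 fell (median -0.35). Igfals, which keeps IGF-1 in the blood and depends on growth hormone, was -1.46, -1.43, -1.67, -0.81 and -1.29 in ethanol-plus-binge livers, against 0.01, -0.36, 0.01 and 0.40 in pair-fed livers. All 5 ethanol-plus-binge arrays were below the lowest pair-fed array, a difference of -1.35 ± 0.18, or 2.55-fold lower (adjusted p = 1.89e-05). Igf1 itself was 0.48, -0.88, -0.38, -0.13 and 0.10 in ethanol-plus-binge livers, against -0.27, -0.27, -0.11 and -0.16 in pair-fed livers. Its ethanol-plus-binge arrays scattered on both sides of the pair-fed arrays.

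Bile acid genes changed in both directions, with 4 of 21 measured members higher and 8 lower (median -0.28). Cyp7a1, the rate-limiting enzyme of bile acid synthesis, was -1.84, -1.86, -2.02, -0.26 and -1.42 in ethanol-plus-binge livers, against 0.71, 0.71, 0.92 and 1.80 in pair-fed livers. Replicate 4 was the highest ethanol-plus-binge array, 2 of those 5 arrays were well above background, and the groups did not overlap. The difference was -2.52 ± 0.46, or 5.72-fold lower (adjusted p = 0.000504), and -4.88 in the software's log ratio. Nr5a2, the receptor LRH-1 that maintains Cyp7a1, fell by 0.65 ± 0.10 (adjusted p = 0.000113). Fgfr4, the receptor through which an intestinal hormone restrains Cyp7a1, fell by 0.82 ± 0.17 (adjusted p = 0.00175). Cyp39a1, an oxysterol hydroxylase of another route to bile acids, rose by 1.68 ± 0.25 (adjusted p = 7.34e-05). Abcc4, a basolateral exporter of bile acids, rose by 1.11 ± 0.21 (adjusted p = 0.00052), and by 1.72 in the software's log ratio.

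**Figure D3:**
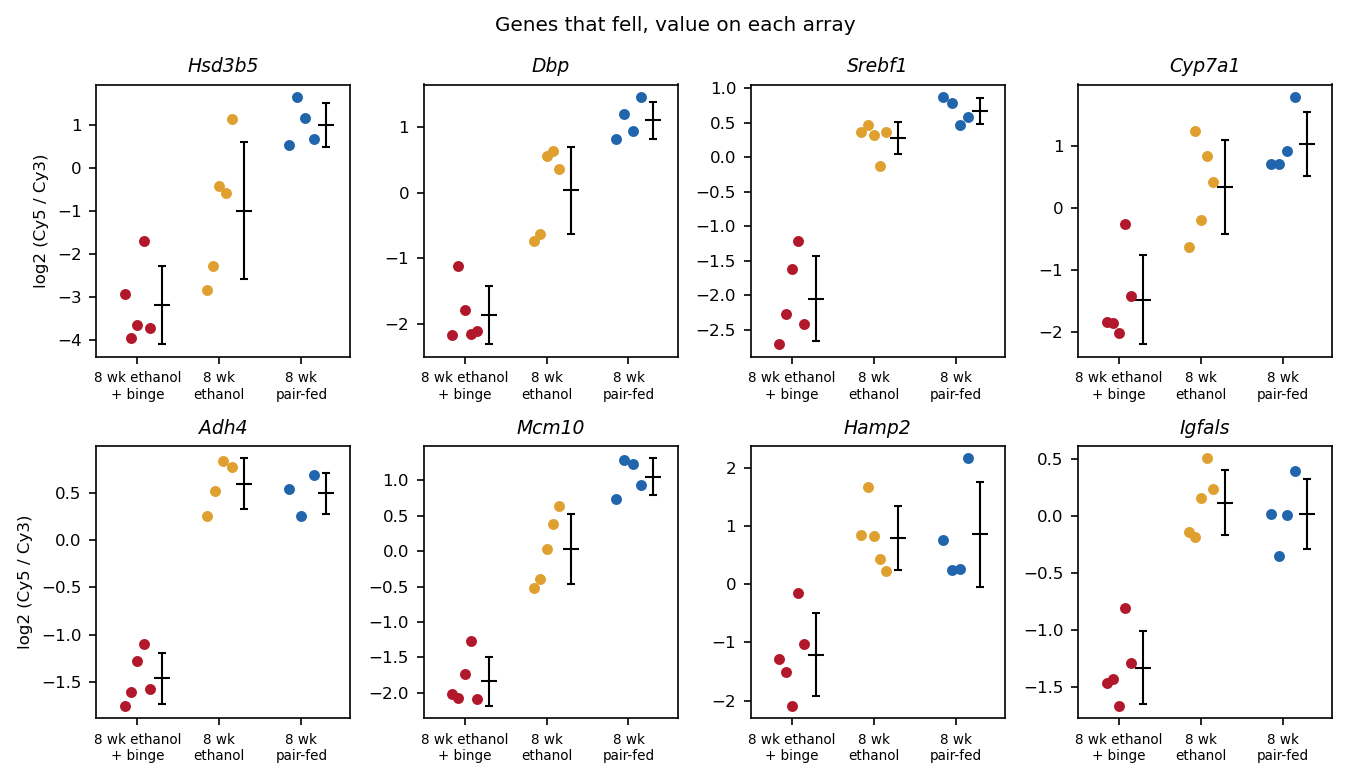
Points are the log2 ratio of Cy5 over Cy3 of 8 genes on each array of the 8 weeks ethanol plus binge group (red, 5 arrays), the 8 weeks ethanol group (orange, 4 or 5 arrays) and the 8 weeks pair-fed group (blue, 3 or 4 arrays), with mean and SD beside them in black. The ethanol-plus-binge arrays lie below all pair-fed arrays in each of the 8 panels, and for Hsd3b5, Dbp and Mcm10, among others, the mean of the ethanol group without a binge lies in between.

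Of 20 measured hepatocyte transcription factors 0 rose and 5 fell (median -0.13), and 2 rose and 6 fell without ethanol-plus-binge replicate 2. In the list of urea cycle and amino acid catabolism 1 of 19 rose and 5 fell (median -0.26). Hal, histidine ammonia-lyase, was -0.94, -1.90, -1.90, -0.74 and -1.32 in ethanol-plus-binge livers, against 0.19 and 0.13 in the 2 pair-fed livers measured, a fall of 1.52 ± 0.27 (adjusted p = 0.00047). Prodh, proline dehydrogenase, fell by 0.83 ± 0.17 (adjusted p = 0.0013), and Sdsl, a serine dehydratase relative, rose by 1.42 ± 0.31 (adjusted p = 0.00214). In the list of gluconeogenesis, fasting and glucocorticoid response 2 of 18 rose and 4 fell (median 0.05). Fkbp5, a standard glucocorticoid target, rose by 1.31 ± 0.17 (adjusted p = 1.67e-05). G6pc, the glucose-6-phosphatase that releases glucose into blood, fell by 2.21 ± 0.51 (adjusted p = 0.00419). It had an unmarked spot well above background on 2 of the 4 pair-fed arrays. Klf15, which stands in the list of transcription factors and acts on amino acid and glucose metabolism in fasting, fell by 1.31 ± 0.17 (adjusted p = 1.29e-05), and Gys2, the glycogen synthase of liver, by 1.24 ± 0.25 (adjusted p = 0.00111).

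Hepatocytes around the central vein and around the portal vein carry different enzymes. Of 14 measured genes of the central zone 2 rose and 2 fell (median -0.23), and of 10 genes of the portal zone 0 rose and 3 fell (median -0.35). In the central list 2 rose and 1 fell without ethanol-plus-binge replicate 2. Glul, glutamine synthetase of the innermost central layer, was -0.60, -0.57, -0.18, -0.04 and 0.00 in ethanol-plus-binge livers, against 0.03, -0.06, -0.15 and 0.02 in pair-fed livers. Ethanol-plus-binge replicates 1 and 2 were the lowest arrays and the groups overlapped. The gene was not called (-0.24 ± 0.15, adjusted p = 0.342). The central gene Rhbg, an ammonium transporter, rose by 1.14 ± 0.20 (adjusted p = 0.000319), and the portal genes that fell were Hal, Aldh1b1 and G6pc.

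Most clock output genes that were called fell. DBP, TEF and HLF activate genes through the D-box, whose sequence is TTATGTAA, and NFIL3 represses them through the same element. Of 11 measured clock output genes 1 rose and 6 fell (median -0.38). Dbp was -2.17, -1.12, -1.79, -2.15 and -2.10 in ethanol-plus-binge livers, against 0.82, 1.19, 0.94 and 1.46 in pair-fed livers. The groups lay on opposite sides of 0, and the difference was -2.97 ± 0.27, or 7.83-fold lower (adjusted p = 3.87e-07), or -3.60 with the arrays scaled to each other. Tef fell by 1.26 ± 0.13 (adjusted p = 5.31e-07), and Nfil3 was the member that rose, by 1.63 ± 0.23 (adjusted p = 3.65e-05). Outside that list Noct, a rhythmic phosphatase of nicotinamide cofactors, fell by 1.60 ± 0.17 (adjusted p = 1.33e-06). Of 14 core clock genes 2 rose and 2 fell (median 0.03). Clock rose by 0.60 ± 0.12 (adjusted p = 0.00109) and the kinase gene Csnk1e by 0.53 ± 0.10 (adjusted p = 0.00103), whereas the repressor Nr1d1 fell by 1.21 ± 0.20 (adjusted p = 0.000147) and Per3 by 0.82 ± 0.12 (adjusted p = 3.2e-05). Per1 and Per2 were not called, at 0.05 ± 0.15 (adjusted p = 0.888) and -0.22 ± 0.08 (adjusted p = 0.0795). Per2 was called as the mean over its probes, at -0.56 (adjusted p = 0.000271), and without ethanol-plus-binge replicate 1 or 5, at -0.26 (0.0475) and -0.26 (0.0447). Whether all livers were taken at the same time of day is not given in the sources used here, and its part in these differences was not tested.

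Per3, a period gene, was -0.70, -0.37, -0.75, -0.15 and -0.74 in ethanol-plus-binge livers, against 0.05, 0.29, 0.22 and 0.55 in pair-fed livers. No array of one group reached the other, and in the software's log ratio the difference was -1.78. Its promoter is shown because it holds an exact D-box more than once. It is from RefSeq, build GRCm38.p6, at chr4:151044616-151044915 on the minus strand, with matches to TTATGTAA on either strand in capitals.
Per3: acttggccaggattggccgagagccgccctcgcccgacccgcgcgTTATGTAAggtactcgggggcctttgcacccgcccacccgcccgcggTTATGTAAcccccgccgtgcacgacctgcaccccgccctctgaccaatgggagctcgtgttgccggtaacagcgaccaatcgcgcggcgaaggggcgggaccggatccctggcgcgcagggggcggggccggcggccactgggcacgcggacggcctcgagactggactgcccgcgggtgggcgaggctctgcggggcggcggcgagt
Per3 held 2 matches. At least 1 match was present in 0.938% of the 32851 promoters of that length, and as many as in Per3 in 0.0213%. Per3 was shown for these matches, so their rarity follows from the choice, and their part in its fall was not tested.

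Growth arrest genes rose where they were called. In the list of p21, Gadd45 and p53-type arrest genes 5 of 27 measured members rose and 0 fell (median 0.11). The share called was 18.5%, against 16.4% of all genes. The other 22 members were not called, standard p53 targets among them. Cdkn1a, which encodes the cyclin-dependent kinase inhibitor p21, was 1.04, 0.93, 1.23, 1.31 and 1.46 in ethanol-plus-binge livers, against -2.33, -3.13, -3.37 and -3.07 in pair-fed livers. The 5 ethanol-plus-binge arrays lay close together and far above the pair-fed arrays, and the difference was 4.17 ± 0.55, or 18-fold higher (adjusted p = 1.29e-05). Btg2, an antiproliferative p53 target, rose by 1.67 ± 0.38 (adjusted p = 0.003). Trp53inp1, which enhances p53 activity, rose by 1.66 ± 0.33 (adjusted p = 0.0011), and Gadd45b, a stress sensor, by 1.39 ± 0.19 (adjusted p = 2.36e-05). In the list of replication and mitosis 0 of 25 measured members rose and 3 fell (median -0.02), which is 12% called. Tk1, a member that makes thymidine phosphate, fell by 1.86 ± 0.20 (adjusted p = 1.03e-06). Mcm10, which starts DNA replication and is in none of the lists, was -2.02, -2.07, -1.74, -1.27 and -2.09 in ethanol-plus-binge livers, against 0.74, 1.29, 1.23 and 0.94 in pair-fed livers. The groups lay on opposite sides of 0, a difference of -2.89 ± 0.29, or 7.41-fold lower (adjusted p = 6.24e-07).

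Of 29 measured immediate early genes 10 rose and 2 fell (median 0.32). Egr1 was 2.02, 0.38, 1.42, 1.31 and 0.23 in ethanol-plus-binge livers, against -1.87, -2.33, -2.57 and -2.71 in pair-fed livers. Every ethanol-plus-binge array was positive and every pair-fed array negative, a difference of 3.44 ± 0.42, or 10.9-fold higher (adjusted p = 5.25e-06) that was 5.07 in the software's log ratio. Jund, a subunit of AP-1, rose by 1.16 ± 0.21 (adjusted p = 0.000533). Fos, its partner, was 0.33, 0.26, 0.54, 0.02 and 0.01 in ethanol-plus-binge livers, against -0.02, 0.11, -0.20 and -0.24 in pair-fed livers, with overlap, and was not called (0.32 ± 0.16, adjusted p = 0.196). It was well above background on 4 of 5 ethanol-plus-binge arrays and 1 of 4 pair-fed arrays. It was called in the software's log ratio, at 1.60 (adjusted p = 0.026), and in the deposited table, at 1.65 (0.0177). Genes of the unfolded protein and integrated stress response rose in 6 of 27 measured members and fell in 0 (median 0.34). Ddit4, an inhibitor of mTORC1 induced by energy stress and glucocorticoids, rose by 1.82 ± 0.29 (adjusted p = 0.00013), and the transcription factor Atf4 by 0.73 ± 0.15 (adjusted p = 0.00243). Cytosolic heat shock genes went the other way, with 1 of 18 higher and 6 lower (median -0.25), or 0 and 6 without ethanol-plus-binge replicate 1. Hspa1a, the inducible HSP70, fell by 1.03 ± 0.19 (adjusted p = 0.000641), and its co-chaperone Dnajb1 by 0.86 ± 0.13 (adjusted p = 8.62e-05).

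**Figure D4:**
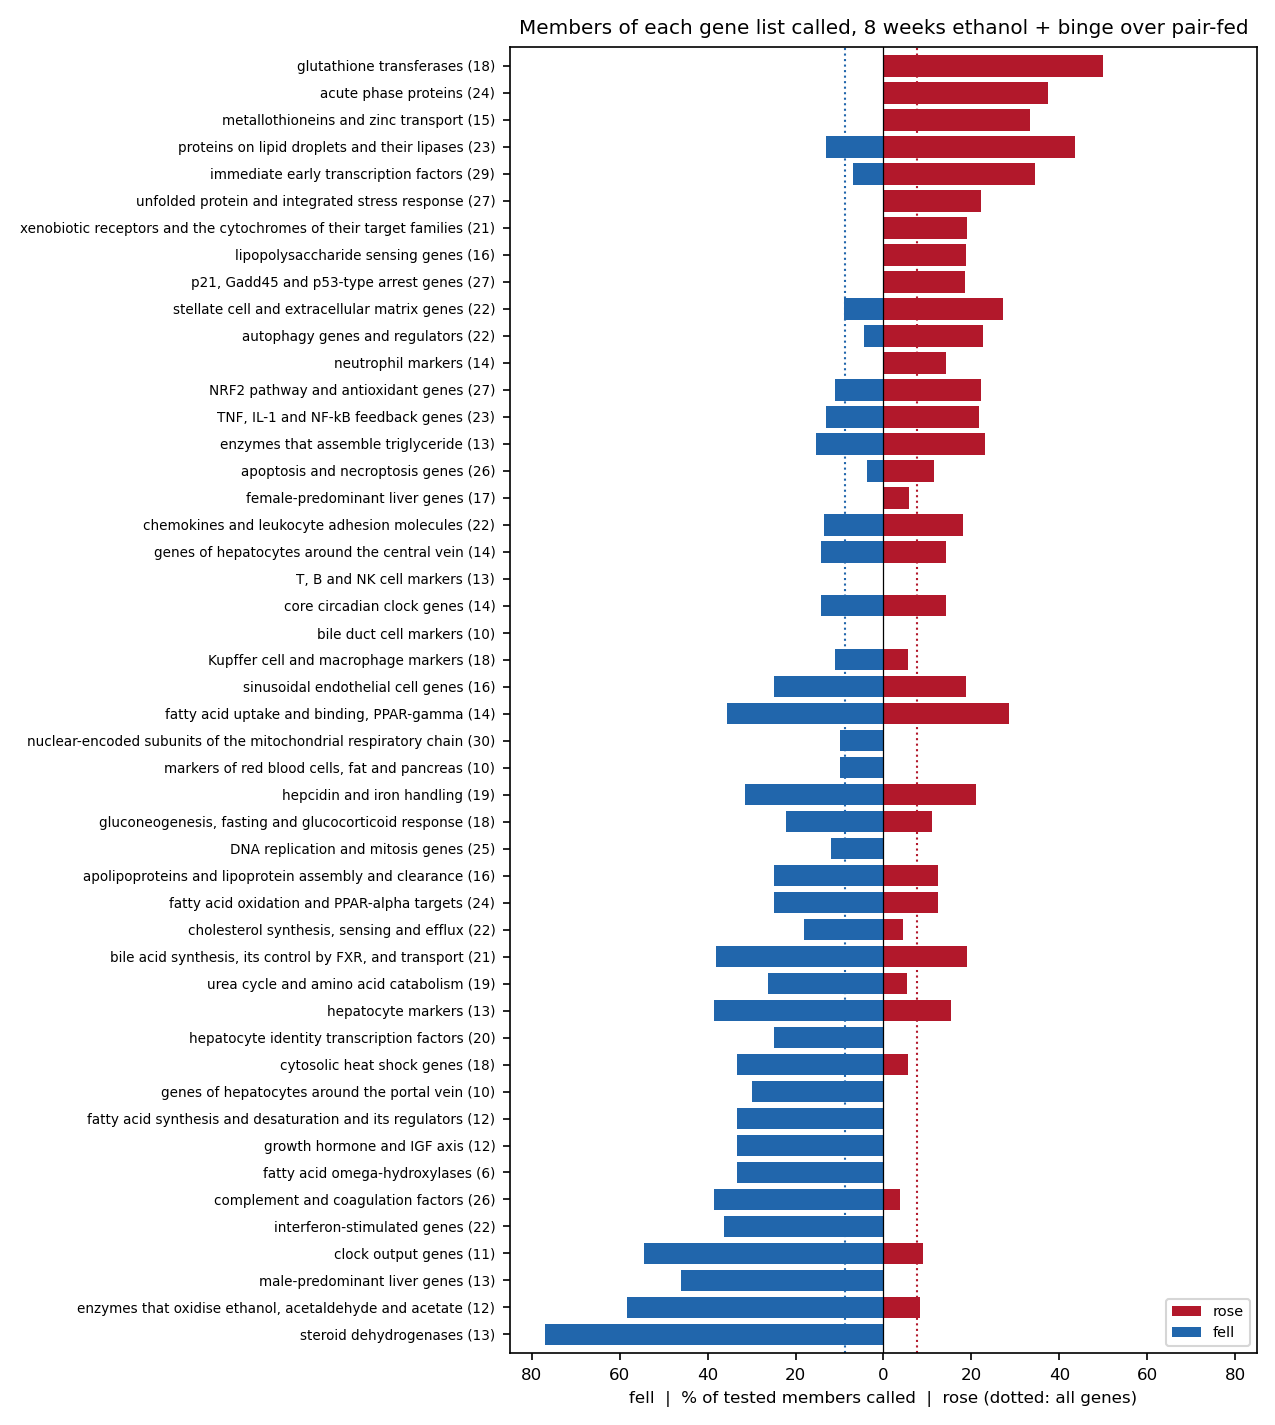
Bars give the percent of the tested members of each of 48 gene lists that rose (red, to the right) or fell (blue, to the left) in 8 weeks ethanol plus binge over 8 weeks pair-fed livers, with the number tested in brackets and dotted lines at 7.6% and 8.76% for all genes. Glutathione transferases, with 9 of 18 higher, are at the top and steroid dehydrogenases, with 10 of 13 lower, at the bottom.

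Acute phase genes rose in 9 of 24 measured members and fell in 0, with a median of 1.02. Without ethanol-plus-binge replicate 2 the number was 10 and the median 1.32, and without replicate 1 they were 7 and 0.81. The mean over the list relative to the pair-fed mean was 2.27, -0.37, 0.89, 1.1 and 1.74 on the ethanol-plus-binge arrays, against 0.05, 0.41, 0.46 and -0.85 on the pair-fed arrays. Replicate 2 of the ethanol-plus-binge group lay within the pair-fed range and the other 4 above it. Lcn2, a protein of neutrophils and hepatocytes that withholds iron from bacteria, was 1.38, -2.34, 0.02, 0.06 and 1.00 in ethanol-plus-binge livers, against -3.68, -4.08, -3.14 and -5.88 in pair-fed livers. Replicate 2 was far below the other 4 ethanol-plus-binge arrays and still above every pair-fed array. The difference was 4.22 ± 0.78, or 18.6-fold higher (adjusted p = 0.000494), and 4.81 (adjusted p = 9e-05) without replicate 2. Il1r1, the interleukin-1 receptor, was 1.65, -1.20, 0.52, 0.77 and 1.27 in ethanol-plus-binge livers, against -1.49, -1.69, -2.14 and -2.28 in pair-fed livers. Its lowest ethanol-plus-binge array was again replicate 2, above all pair-fed arrays, and the rise was 2.50 ± 0.47 (adjusted p = 0.000551), or 3.14 in the software's log ratio. Lbp, which hands lipopolysaccharide to CD14, rose by 1.39 ± 0.19 (adjusted p = 3.8e-05), and Stat3, the factor downstream of interleukin-6, by 0.95 ± 0.16 (adjusted p = 0.000267).

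Serpina3n, a protease inhibitor of the acute phase, was 1.36, -3.05, -0.83, 0.06 and 0.93 in ethanol-plus-binge livers, against -2.62, -2.31, -1.89 and -3.16 in pair-fed livers. Replicate 2 fell among the pair-fed arrays, and the difference was 2.19 ± 0.56 (adjusted p = 0.00812) with it and 2.87 (adjusted p = 2.69e-05) without it. With all arrays it was not called in the Cy5 channel alone (adjusted p = 0.0902), nor when only the arrays of the comparison were fitted (adjusted p = 0.0801). Saa1, serum amyloid A, was 1.91, -4.03, -0.85, 0.13 and 1.21 in ethanol-plus-binge livers, against -1.18, -0.53, -0.92 and -4.91 in pair-fed livers. Ethanol-plus-binge replicate 2 and pair-fed replicate 4 were far below the rest, and the gene was not called (1.56 ± 1.00, adjusted p = 0.337), nor without ethanol-plus-binge replicate 2 (2.49, adjusted p = 0.0565), without pair-fed replicate 4 (0.55, adjusted p = 0.802) or in the Cy5 channel alone (0.73, adjusted p = 0.645). The secreted proteins Fgb, a fibrinogen chain, and Ahsg, fetuin-A, rose in the ratio by 1.80 ± 0.47 (adjusted p = 0.00888) and 1.24 ± 0.18 (adjusted p = 3.68e-05). Neither was called in the Cy5 channel alone, at 0.63 (adjusted p = 0.0742) and 0.14 (adjusted p = 0.544), and Fgb was not called in the fit of those arrays only (0.066).

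Of 16 measured genes for sensing lipopolysaccharide 3 rose and 0 fell (median 0.13). That is 18.75% called, near the 16.4% of all genes. Cd14, the lipopolysaccharide co-receptor, was 1.03, -0.08, 1.12, -0.14 and -0.12 in ethanol-plus-binge livers, against -0.95, -2.04, -2.60 and -2.18 in pair-fed livers. Ethanol-plus-binge replicates 1 and 3 were higher than the other 3, and all 5 were above the pair-fed arrays, a difference of 2.30 ± 0.32, or 4.93-fold higher (adjusted p = 2.81e-05). Tlr4, the receptor itself, was not called (0.09 ± 0.08, adjusted p = 0.514). In the list of TNF, interleukin-1 and NF-kB feedback genes 5 of 23 rose and 3 fell (median 0.02). Tnfrsf1a, a TNF receptor, rose by 0.80 ± 0.11 (adjusted p = 2.81e-05), Il18, a cytokine of the inflammasome, fell by 0.46 ± 0.07 (adjusted p = 5.62e-05), and Tnf was not called (-0.12 ± 0.08, adjusted p = 0.328). Chemokines and adhesion molecules rose in 4 of 22 and fell in 3 (median 0.06). Ccl6, a chemokine of myeloid cells, rose by 1.71 ± 0.24 (adjusted p = 2.67e-05). Cxcl12, which retains leukocytes in tissue, fell by 1.48 ± 0.22 (adjusted p = 9.01e-05). Ccl2, an attractant of monocytes, was not called (0.09 ± 0.09, adjusted p = 0.568).

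Hepcidin, the hormone that blocks the export of iron, is encoded by Hamp, and the mouse has a copy, Hamp2. Of 19 measured iron genes 4 rose and 6 fell (median -0.13), and 2 rose and 7 fell without ethanol-plus-binge replicate 2. Hamp was 1.15, -3.72, -2.11, -1.14 and -0.69 in ethanol-plus-binge livers, against 0.88, 0.36, 1.36 and 1.03 in pair-fed livers. Ethanol-plus-binge replicate 1 lay among the pair-fed arrays and the other 4 below them. The difference of -2.21 ± 0.62 (adjusted p = 0.0146) was -2.82 (adjusted p = 0.000569) without replicate 1 and -1.61 (adjusted p = 0.04) without replicate 2, and was not called when only the arrays of the comparison were fitted (adjusted p = 0.081). Hamp2 was -1.28, -1.52, -2.09, -0.16 and -1.03 in ethanol-plus-binge livers, against 0.77, 0.25, 0.26 and 2.16 in pair-fed livers. Its groups did not overlap, and the difference was -2.07 ± 0.38, or 4.2-fold lower (adjusted p = 0.00047). The probes of these near-identical genes may share signal.

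Interferon-stimulated genes fell in 8 of 22 measured members and rose in 0, with a median of -0.33, and 7 fell and 1 rose without ethanol-plus-binge replicate 1. Irf7, a master factor of the interferon response, fell by 0.96 ± 0.15 (adjusted p = 6.52e-05). The immunoproteasome subunits Psmb9 and Psmb8 fell by 1.18 ± 0.21 (adjusted p = 0.000419) and 0.83 ± 0.14 (adjusted p = 0.000149). Complement and coagulation genes fell in 10 of 26 measured members and rose in 1 (median -0.30), or 12 and 2 without that array. F13b, a subunit of coagulation factor XIII, fell by 0.94 ± 0.09 (adjusted p = 1.03e-06), and Klkb1, plasma kallikrein, by 1.16 ± 0.16 (adjusted p = 5.34e-05). Serpind1, heparin cofactor II, was -1.07, -1.13, -1.16, -0.80 and -1.18 in ethanol-plus-binge livers, against -0.04, -0.02, -0.05 and -0.06 in pair-fed livers. Both groups were tight and did not overlap, a fall of 1.03 ± 0.10 (adjusted p = 1.24e-06).

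Markers of other cells were described as lists, beside 16.4% of all genes called. Of 14 measured neutrophil markers 2 rose and 0 fell (median 0.20), with list levels of 0.10 to 0.44 on the ethanol-plus-binge arrays and -0.16 to 0.15 on the pair-fed arrays. The members that rose were the calprotectin genes, S100a9 by 1.12 ± 0.20 (adjusted p = 0.000378) and S100a8. S100a8 was 0.30, -0.47, 0.19, 0.11 and 0.65 in ethanol-plus-binge livers, against -0.28, -0.52, -0.53 and -0.46 in pair-fed livers, and replicate 2 of the ethanol-plus-binge group lay among the pair-fed arrays (adjusted p = 0.00551). It was not well above background on any pair-fed array, so its difference has only a bound, at least 1.96-fold higher by the level of the Cy5 channel, which differs in scale from the ratio above and from the 2.59 of the software's log ratio. The granule enzyme Mpo was not called (0.21 ± 0.11, adjusted p = 0.248). Of 18 measured Kupffer cell and macrophage markers 1 rose and 2 fell (median -0.14), with list levels of -0.47 to 0.22 on the ethanol-plus-binge arrays and -0.18 to 0.22 on the pair-fed arrays. The rise was that of Cd163, a scavenger receptor for haemoglobin, by 0.77 ± 0.20 (adjusted p = 0.0083). The falls were Adgre1, which encodes F4/80, by 0.68 ± 0.17 (adjusted p = 0.00753), and Cd5l of resident Kupffer cells by 0.77 ± 0.15 (adjusted p = 0.00111). When only the arrays of the comparison were fitted, Cd163, Adgre1 and S100a8 were not called (adjusted p = 0.0529, 0.0902 and 0.0549). Bile duct markers (10 measured) and lymphocyte markers (13 measured) had 0 members called by limma, and of 10 markers of red blood cells, fat and pancreas 1, the erythroid enzyme Alas2, fell. The part of changed cell numbers in the acute phase, iron and matrix genes was not tested.

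Endothelial genes divided, with 3 of 16 measured members higher and 4 lower (median -0.06). Without ethanol-plus-binge replicate 1 these were 5 and 4, and without replicate 2 2 and 5. Lyve1, a hyaluronan receptor of sinusoidal and lymphatic endothelium, was -0.02, 1.42, 1.04, 0.99 and 0.74 in ethanol-plus-binge livers, against -1.36, -1.01, -1.75 and -1.70 in pair-fed livers. Replicate 1 was the lowest ethanol-plus-binge array and still above every pair-fed array, and the difference was 2.29 ± 0.23, or 4.88-fold higher (adjusted p = 7.5e-07). Clec4g and Dnase1l3, which also mark sinusoidal cells in mouse liver, fell by 0.79 ± 0.14 (adjusted p = 0.000391) and 1.00 ± 0.15 (adjusted p = 5.18e-05). The scavenger receptors Stab1 and Stab2 and the adhesion molecule Pecam1 were not called, at -0.31 ± 0.12 (adjusted p = 0.0715), -0.20 ± 0.10 (adjusted p = 0.216) and 0.02 ± 0.09 (adjusted p = 0.907). Stab1 was called lower without ethanol-plus-binge replicate 2 (-0.36, adjusted p = 0.0486) or 4 (-0.36, 0.0423). Stellate cell and matrix genes rose in 6 of 22 measured members and fell in 2 (median 0.20). Replicate 1 of the ethanol-plus-binge group left out, the counts were 9 and 1, and 4 and 1 with replicate 2 left out. Col4a1, of basement membrane, rose by 0.74 ± 0.13 (adjusted p = 0.000494), and Reln, a protein of stellate cells, fell by 0.67 ± 0.12 (adjusted p = 0.000321). Col1a1, the main fibrillar collagen, was -1.14, 1.06, 0.80, 0.23 and 0.04 in ethanol-plus-binge livers, against -0.01, -0.51, -1.37 and -0.84 in pair-fed livers. Ethanol-plus-binge replicate 1 was among the lowest arrays of both groups, and the gene was not called (0.88 ± 0.31, adjusted p = 0.0558). Without that array the difference was 1.22 (adjusted p = 0.00141), without pair-fed replicate 1 1.11 (0.023), and as the mean over its probes 0.74 (0.0282).

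Autophagy genes rose in 5 of 22 measured members and fell in 1 (median 0.06). Map1lc3b, which marks autophagosomes, was 0.15, 0.23, 0.23, 0.35 and 0.48 in ethanol-plus-binge livers, against -0.57, -0.48, -0.47 and -0.44 in pair-fed livers. The signs differed on every array, a rise of 0.78 ± 0.09 (adjusted p = 6.33e-06). In the apoptosis and necroptosis list 3 of 26 rose and 1 fell (median -0.07), or 2 and 2 without ethanol-plus-binge replicate 2. With all arrays 15.4% of that list was called, near the 16.4% of all genes. Bcl2l1, which encodes the survival protein BCL-XL, rose by 1.38 ± 0.24 (adjusted p = 0.000272), but with marked spots kept the value was 0.27 (adjusted p = 0.0653). Of 30 nuclear-encoded subunits of the respiratory chain 0 rose and 3 fell (median -0.05), and 1 fell without ethanol-plus-binge replicate 1, as without replicate 2. With all arrays 10% of these were called, less than the 16.4% of all genes.

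Several of the largest changes belong to none of these lists or were named for their size. Tnfrsf12a, the receptor Fn14 of the cytokine TWEAK, was 1.04, 0.89, 1.20, 0.69 and 1.33 in ethanol-plus-binge livers, against -0.97, -1.83, -2.02 and -2.22 in pair-fed livers. All ethanol-plus-binge arrays were positive and all pair-fed arrays negative, a difference of 2.79 ± 0.21, or 6.91-fold higher (adjusted p = 9.17e-08). Mrap, an accessory protein of the ACTH receptor, rose by 2.79 ± 0.36 (adjusted p = 1.46e-05). The choline kinase Chka rose by 2.61 ± 0.28 (adjusted p = 1.33e-06), and the mean over its probes was 1.96. Cldn14, a tight junction protein, rose by 2.49 ± 0.35 (adjusted p = 2.44e-05), and Gdf15, a stress cytokine, by 2.08 ± 0.38 (adjusted p = 0.00044). Thrombomodulin, encoded by Thbd, rose by 2.27 ± 0.39 (adjusted p = 0.00025). Keg1 fell by 2.96 ± 0.39 (adjusted p = 1.61e-05), and Etnppl, a lyase of phosphoethanolamine, by 2.56 ± 0.30 (adjusted p = 3.99e-06). The succinate receptor Sucnr1 fell by 2.27 ± 0.22 (adjusted p = 3.94e-07), the aldehyde oxidase Aox3 by 1.76 ± 0.24 (adjusted p = 2.42e-05), and endothelial lipase, Lipg, by 1.65 ± 0.19 (adjusted p = 2.57e-06). In the software's log ratio Thbd was 3.69, Keg1 -4.23, Etnppl -3.54, Sucnr1 -3.15 and Lipg -2.64.

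The lowest p of all genes was that of Paox, a polyamine oxidase named here after its values were seen. Paox was -0.84, -0.66, -0.94, -0.58 and -0.88 in ethanol-plus-binge livers, against 0.83, 0.56, 0.53 and 0.65 in pair-fed livers. Both groups were tight and lay on opposite sides of 0, at -1.42 ± 0.09 (adjusted p = 1.82e-09), and the gene's other kept probe gave -1.36.

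Of the members of the lists, 81 had too few unmarked spots to be tested. Values of some of them with marked spots kept, also named after they were seen, were as follows. Igfbp1, a binding protein of IGFs that insulin represses, was 1.98, 0.17, 1.85, 1.33 and 0.21 in ethanol-plus-binge livers, against -1.66, -2.65, -3.51 and -3.53 in pair-fed livers, a difference of 3.94 ± 0.82 (adjusted p = 0.00124). Insig2, the other sterol sensor, was 0.20, 0.85, 1.43, 1.19 and 1.20 in ethanol-plus-binge livers, against -1.26, -2.61, -2.07 and -2.13 in pair-fed livers, and rose by 2.99 ± 0.45 (adjusted p = 5.11e-05), opposite in direction to Insig1. All arrays of the first group lay above all of the second for both genes. The desaturase Fads1 fell by 1.24 ± 0.13 (adjusted p = 5.2e-07), the citrate lyase Acly by 1.58 ± 0.42 (adjusted p = 0.00968) and the hepatocyte factor Cebpa by 0.95 ± 0.15 (adjusted p = 7.5e-05). Scd1, the stearoyl desaturase, was -1.82, 1.77, 0.76, 1.47 and 0.52 in ethanol-plus-binge livers, against 0.89, 0.22, -0.35 and 0.55 in pair-fed livers, with wide overlap, and was not called (0.21 ± 0.60, adjusted p = 0.865).

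Ethanol feeding without a binge was measured against the same 4 pair-fed arrays, so the comparisons share them and the values are set side by side. Without a binge 24 of 15674 genes were called (0.153%), 10 higher (0.0638%) and 14 lower (0.0893%) than in pair-fed livers. Cyp2b9 was -0.01, 0.64, 0.40, 0.37 and 0.69 in livers on ethanol without a binge, all above the pair-fed arrays. That was a difference of 3.27 (adjusted p = 0.0029) without the binge, against 2.91 with it. Gsta4 was higher by 0.62 (adjusted p = 0.0109) without the binge, against 0.56 with it. Noct differed by -0.88 (adjusted p = 0.0315) without the binge, against -1.60 with it. Cidec was not called without the binge, at 0.05 (adjusted p = 0.998), nor were Mt1 at -0.57 (adjusted p = 0.914), Cdkn1a at -0.24 (adjusted p = 0.98) and Srebf1 at -0.40 (adjusted p = 0.914). Hsd3b5 without the binge was at -2.0 (adjusted p = 0.227) and Dbp at -1.07 (adjusted p = 0.145). Medians of some lists also moved without the binge, which is a description. Glutathione transferases had 0.54 without the binge, against 0.53 with it. The list of xenobiotic receptors and cytochromes had 1.04, against 0.12, and male-predominant genes had -0.40, against -0.68. Steroid dehydrogenases had 0.14, against -1.13, and acute phase genes -0.05, against 1.02. The median of all genes without the binge was 0.006.

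Ethanol with the binge was also tested directly against ethanol without it, on the same ethanol-plus-binge arrays. Of 15841 genes 2609 were called (16.5%), 1278 higher (8.07%) and 1331 lower (8.4%) with the binge. Of the 2573 genes called against pair-fed livers, 857 rises and 926 falls were called here in the same direction, and 11 genes could not be tested. Cidec differed by 3.19 (adjusted p = 0.000566), Plin4 by 2.27 (adjusted p = 2.22e-06) and Mt1 by 6.12 (adjusted p = 2.28e-08). Among falls, Srebf1 differed by -2.33 (adjusted p = 1.97e-05) and Adh4 by -2.06 (adjusted p = 8.01e-07). The difference was not called for Plin2 at 0.98 (adjusted p = 0.0522), Cd36 at 0.49 (adjusted p = 0.126), Cyp2b9 at -0.36 (adjusted p = 0.66) and Gsta4 at -0.06 (adjusted p = 0.787). With each array centred on its median 1335 genes were called, 62.4% of them higher, against 49.0% before, and the Cy5 channel alone called 1412.

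The effect of 10 days of ethanol with a binge was measured on other arrays in another scan, against their own pair-fed group. It called 1133 of 15672 genes (7.23%), 678 higher (4.33%) and 455 lower (2.9%). The difference between the 8-week effect and the 10-day effect passed the test for 522 of 15437 genes (3.38%), with the higher value at 8 weeks for 148 (0.959%) and the lower for 374 (2.42%), and 292 of them were among the 2573. With slide as a block 191 were called, with arrays centred on their medians 162, and in the Cy5 channel alone 204. Scan and duration cannot be told apart. Srebf1 was -2.72 at 8 weeks and 0.65 at 10 days, a difference of -3.37 (adjusted p = 0.000367). Hsd3b5 was -4.20 at 8 weeks and -0.12 at 10 days (adjusted p of the difference 0.0118). Keg1 was -2.96 and -0.09 (0.00891), Aox3 -1.76 and -0.06 (0.0176), and Serpind1 -1.03 and -0.26 (0.00794). Srebf1 had opposite signs at 8 weeks and 10 days, and the falls of Hsd3b5, Keg1, Aox3 and Serpind1 were larger at 8 weeks.

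Among genes with a larger rise at 8 weeks, Plin4 was 2.61 at 8 weeks and 0.99 at 10 days (adjusted p of the difference 0.0336), Plin5 1.17 and 0.21 (0.0113), Cd14 2.30 and 0.26 (0.0242), and Gadd45b 1.39 and -0.17 (0.00332). Cyp4f14 was -0.98 at 8 weeks and 0.92 at 10 days (4.42e-05). Clec4g was -0.79 and 0.73 (0.00018), and Dnase1l3 -1.0 and 0.53 (0.000268). The last 3 genes, and Gadd45b, had opposite signs at the 2 durations.

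Cidec was 3.25 higher at 8 weeks and 0.65 higher at 10 days, where the ethanol-plus-binge livers averaged -0.05 ± 2.05, against -0.70 ± 0.88 in pair-fed livers (SD, n = 3 each). The difference between its effects was not called, at 2.59 (adjusted p = 0.183). Nor was it for Mt1 at 2.74 (adjusted p = 0.0504), Lcn2 at -0.12 (adjusted p = 0.979), Dbp at -0.72 (adjusted p = 0.473), Tk1 at 0.06 (adjusted p = 0.959) and Klf15 at 0.28 (adjusted p = 0.673). A missed threshold does not show that the effects were alike.

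**Figure D5:**
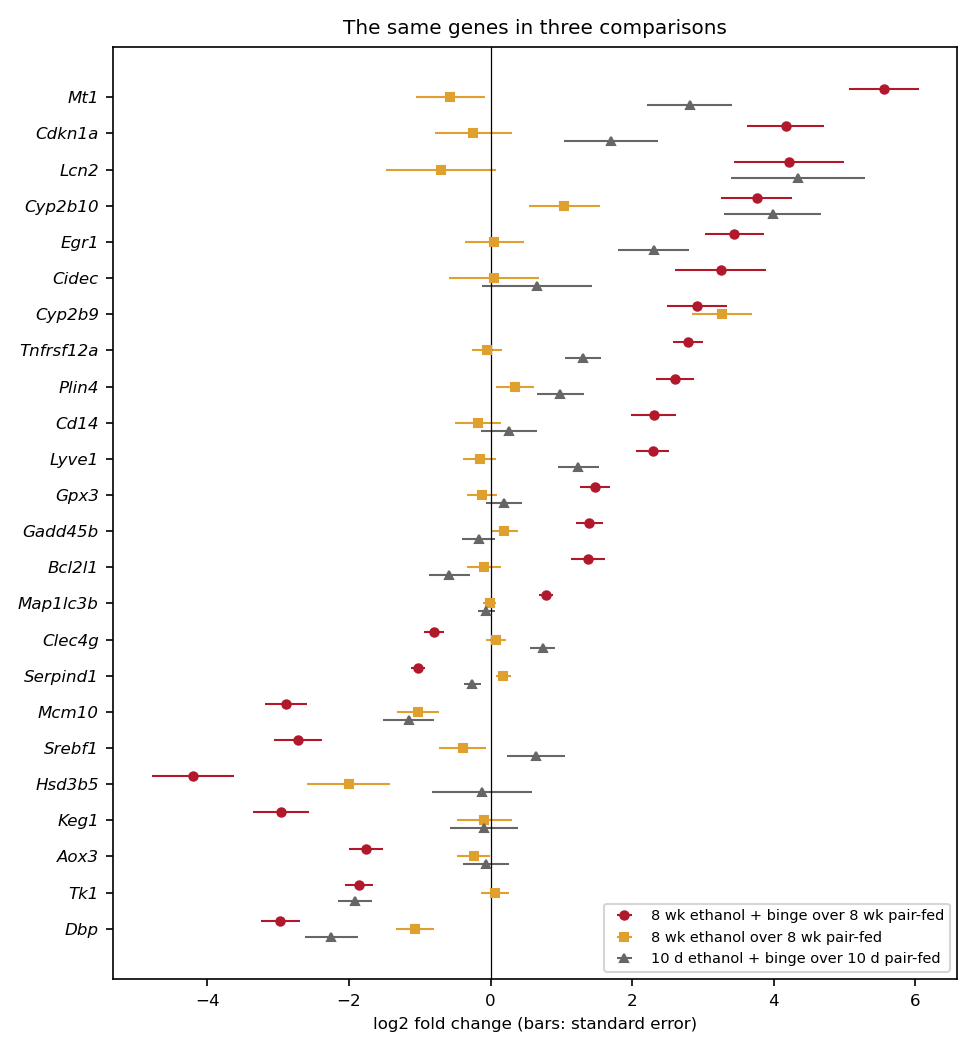
For 24 genes the log2 fold change is given for 8 weeks ethanol plus binge over 8 weeks pair-fed (red circles), 8 weeks ethanol over 8 weeks pair-fed (orange squares) and 10 days ethanol plus binge over 10 days pair-fed (grey triangles), with standard errors as bars. Cidec has 3.25, 0.05 and 0.65, and no 10-day value is drawn for Cyp2b9, which had too few unmarked spots there.

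The genes called were chosen on these same arrays, so their mean shift on each array is a description. Relative to the pair-fed mean, the genes that rose averaged 0.57 to 0.71 higher on each of the 5 arrays, and the genes that fell averaged -0.77 to -0.40. The smallest shift of the genes that fell was on replicate 4, the array with the lowest median Cy5 intensity. The median SD of a gene was 0.17 over the ethanol-plus-binge arrays and 0.14 over the pair-fed arrays.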

How the data were processed

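The deposited scanner files hold spot intensities of both dyes, and deposited log10 ratios of Cy5 over Cy3, made by Agilent Feature Extraction 11.5.1.1, per the file headers. A deposited table of log2 values follows the software's processed ratio. Per the labels' protocols, RNA was taken with Trizol and QIAGEN columns and labelled as cDNA, with the same dye orientation on all arrays. The labels of the Cy3 channel name a commercial mouse RNA and also liver.

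Median intensities were corrected with normexp (offset 50) and normalized by loess within each array in limma 3.58.1 (R 4.3.3). Spots marked as outliers by the software were set to missing, spots of a probe were averaged, and 36526 of 41174 probes were kept, those whose Cy5 signal was well above background on 3 or more arrays. RefSeq accessions gave 22895 of the kept probes 1 symbol. A gene was read from the brightest of its probes that had 2 or more unmarked arrays in each group. Group means over all 24 arrays were fitted in one model with eBayes, so that groups share the spread, and a gene was called at an adjusted p under 0.05. The same fit was also checked on simulated arrays with known changes. No spot of a gene was saturated, and no 2 arrays held identical values.

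The replicate numbers were not taken as pairs. The correlation of the deviations of same-numbered arrays from their group means was -0.229, 0.005, 0.035 and 0.27. Named genes are Cidec, the 20 largest rises and falls among called genes that did not overlap, and from each list its key members, 5 called members of lowest p and up to 3 that were not called, of which 1 gene is not reported here. The lists and the comparison were chosen with earlier results of these data known. The alternatives were other corrections, normalizations, channels, filters, probes, blocks, array weights and fits without 1 array, and gene lists without replicate 1 or 2 of the ethanol-plus-binge group, which were chosen after the data were seen.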

Additional observations from a re-analysis of the deposited data

Results flagged for a closer look

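In 273 groups of named genes 11 had 1 array that stood apart from the rest of its group, which is 4.03% of the groups, and chance gives about 1 in 20. On the ethanol-plus-binge arrays these were replicate 4 for Aadac (-0.26), Serpind1 (-0.80) and Sucnr1 (-0.66), each higher than its group, and replicate 5 for Abhd5 (0.46). On the pair-fed arrays they were replicate 4 for Alas2 (0.81), Insig1 (-0.04), Saa1 (-4.91) and Slc39a14 (-0.89), replicate 1 for Abhd5 (-0.62) and Mrap (-0.74), and replicate 3 for Sdsl (-0.98).

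Of 147 named genes, 37 had an effect at 8 weeks that differed from the effect at 10 days by limma (adjusted p under 0.05). Over all genes it was 522 of 15437 (3.38%). Many named genes were chosen by the size or p of the 8-week effect on these same arrays, so a larger share among them follows from the choice. The values are the log2 effect at 8 weeks minus that at 10 days, and the durations were on different scans. Lipid genes gave 3.36 for Apoa4, 1.62 for Plin4, 1.55 for Pnpla2, 0.96 for Plin5 and 0.93 for Vldlr, against -3.37 for Srebf1, -2.42 for Fasn, -1.90 for Cyp4f14 and -0.81 for Aadac. Stress, arrest and survival genes gave 2.35 for Trp53inp1, 2.07 for Ddit4, 1.96 for Bcl2l1, 1.56 for Gadd45b, 1.48 for Tnfrsf12a, 1.29 for Gpx3, 1.14 for Fkbp5 and 0.84 for Map1lc3b, whereas Hspa1a gave -1.50, Dnajb1 -0.73 and Mcm10 -1.73. Hepatocyte enzymes and secreted proteins gave -4.08 for Hsd3b5, -2.87 for Keg1, -1.70 for Aox3, -1.31 for Ttr, -1.17 for Akr1c6, -1.05 for Paox and -0.77 for Serpind1. Genes of immune and other cells gave 2.04 for Cd14, and -1.53 for Clec4g, -1.53 for Dnase1l3, -1.35 for Sucnr1, -1.33 for Alas2, -1.15 for Cd5l, -1.08 for Psmb8, -0.84 for Stab1, -0.79 for Reln and -0.39 for Il18.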

How the results depend on the processing

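Over 25 other settings the number of genes called between ethanol-plus-binge and pair-fed livers stayed within 1.5 times of 2573 except with each array centred on its median (1233), in the Cy5 channel alone (1526) and in a fit of the 9 arrays only (1649). Against ethanol without a binge it was 2609, with 1335 under median centring and 1412 in the Cy5 channel alone. For the difference between durations it was 522, with 162 under median centring, 204 in the Cy5 channel alone and 191 with slide as a fixed block. Without 1 array the first count was 1977 to 2734, and the difference of Cidec 2.94 to 3.67. With the replicate number as a block, which does not pair these samples, 2466 genes were called, and replicate 1 of the groups deviated in opposite ways (r = -0.229). Of 130 named genes that were called, 115 were called under all settings that could be fitted, and none changed direction. The fit of the 9 arrays only lost 10 of them, median centring 5 and the Cy5 channel 4. Many named genes were chosen by size or p on these same arrays, so their larger share kept follows from the choice. Of all 2573 called genes, 1620 were also called in the fit of the 9 arrays only, 1229 under median centring and 1368 in the Cy5 channel. Fasn, Cidea, Nqo1 and Cyp2e1 were lost most often, and the cause was not tested. Signal over background limits Hsd3b5, Cyp7a1, Cyp2b10 and Fos, which were not well above background on every array of the lower group. It also limits S100a8, which was well above background on no array of its lower group.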
